A study of Mus musculus with 6 samples.

Results

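The nuclear genes of the respiratory chain and of ATP synthase were examined in the livers of telmisartan-treated and vehicle-treated mice. They were taken by gene symbol: names that begin with Nduf followed by a, b, c, s or v (complex I), the 4 Sdh genes (complex II), names that begin with Uqcr together with Cyc1 (complex III), names that begin with Cox followed by a digit between 4 and 8 (complex IV) and names that begin with Atp5 (complex V). This gave 89 genes, carried by 93 probe sets annotated to a single symbol, out of 22087 genes measured in this way. Each gene is given by its brightest probe set. Complex I had 42 genes, complex II 4, complex III 8, complex IV 17 and complex V 18. Of the 42 complex I genes, 26 encode accessory subunits, 6 encode core subunits and 8 encode assembly factors, while the products of Ndufa4 and Ndufa4l2, named for complex I, are found with complex IV. The complex V genes include 1 pseudogene, Atp5c1-ps.

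Telmisartan is an antagonist of the angiotensin II receptor that is used against high blood pressure. Both groups were STAM mice, a model of nonalcoholic steatohepatitis (NASH) in which male C57BL/6J mice are made diabetic and then fed fat: all of them had a single dose of 200 μg streptozotocin, which damages the beta cells of the pancreas, on day 2 after birth, and chow with 60 kcal% fat once they were 4 weeks old. The telmisartan group had 5 mg/kg telmisartan by mouth each day between 6 and 12 weeks of age, in 0.5% carboxymethyl cellulose. The vehicle group had this carrier over the same weeks, without the drug. Of 7 mice in each group, 3 were put on Affymetrix Mouse Gene 2.0 ST arrays, 1 array for each mouse (telmisartan 1 to 3 and vehicle 1 to 3). No healthy mice were on arrays, so every comparison is between 2 groups of diabetic, fat-fed animals.

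Complex I takes electrons from NADH and complex II takes them from succinate, and both pass them to ubiquinone. Complex III moves them on to cytochrome c and complex IV to oxygen, and complexes I, III and IV pump protons across the inner mitochondrial membrane, whose return through complex V drives the synthesis of ATP. Hepatocytes are rich in mitochondria and depend on this chain to burn fatty acids. Most subunits are encoded in the nucleus, while a small number of core subunits of complexes I, III, IV and V are encoded in mitochondrial DNA.

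Values are log2 of the normalized intensity, and a log2 fold change is telmisartan minus vehicle with its standard error (SE). A gene was called, in either direction, where the unadjusted limma p was under 0.05 and the change at least 1.2-fold. The arrays were much alike, with pairwise correlations of 0.984 to 0.991, array medians of 2.87 to 2.93 with telmisartan and 2.85 to 2.92 with vehicle, and the lowest mean correlation with the others for vehicle 1 (0.985). Over all 22087 genes, 681 were called higher and 772 lower, 6.58% in all. At an unadjusted p under 0.05 with no fold threshold, 726 were higher and 827 lower, and after adjustment in limma 0 were left. The liver's own markers were present: the 10 hepatocyte markers averaged 11.1 to 11.2 on every array, and none of them was called. Markers of some other liver cells were called lower with telmisartan more often than all genes (3.50%) or genes with a group mean of at least 5 (6.14%). All 7 endothelial markers were called lower with telmisartan (median log2 fold change -0.52), as were 3 of 9 Kupffer cell and macrophage markers (median -0.33) and 2 of 8 stellate cell markers (median -0.20). Summed over the list, endothelial markers gave intensities of 510.0 to 725 on the telmisartan arrays and 761 to 958 on the vehicle arrays. Kupffer cell markers gave 900.2 to 1015 on the telmisartan arrays and 925 to 1483 on the vehicle arrays. Stellate cell markers gave 547 to 734 on the telmisartan arrays and 711 to 928 on the vehicle arrays. None of the 5 cholangiocyte, 5 lymphocyte and 5 neutrophil markers was called, and none reached a group mean of 5. In whole liver, fewer cells of a type and less RNA per cell cannot be told apart. The part of these shifts in the results for the respiratory chain was not tested.

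Of the 89 genes, 7.87% were called in either direction, near the 6.58% of all genes. With telmisartan, 6 of the 89 genes were called higher: Ndufa1, Ndufa2, Ndufa5 and Ndufa6 of complex I and Atp5e and Atp5k of complex V. This was 6.74% of them, where 3.08% of all genes were called higher. The 1 gene called lower was Cox6b2, 1.12% of the 89 where 3.50% of all genes were called lower. The number called higher was 3 without telmisartan 2, telmisartan 3, vehicle 1 or vehicle 2. In these fits 2.61% to 3.36% of all genes were called higher, so that the excess over all genes was largely lost. The number was 6 without telmisartan 1 and 5 without vehicle 3, where 3.47% and 2.97% of all genes were called higher. The number called lower was 0 without vehicle 1 or vehicle 3, where 4.41% and 2.83% of all genes were called lower. No gene of complexes II and III was called. The largest of these changes was that of Atp5e, at 1.35-fold, and the smallest limma adjusted p among the 89 genes was 0.695. Fold changes over all 89 genes ran from -0.40 to 0.43 on the log2 scale.

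The median log2 fold change of the 89 genes was 0.05, and 62.9% of them were above 0, while over all genes the median was 0.00 and 49.8% were above 0. By complex, the medians were 0.07 for complex I, -0.01 for complex II, 0.08 for complex III, 0.10 for complex IV and -0.01 for complex V. Without telmisartan 3 the median over the 89 genes was 0.02. The median of complex IV rested on single arrays, being 0.00 without vehicle 1 and 0.02 without telmisartan 3. With arrays left out in turn, that of complex I lay between 0.06 and 0.11, while those of complexes II and V fell on both sides of 0. Of the 89 genes, 68 reached a log2 intensity of 5 or more in the mean of a group and are called bright here, the others dim. The median of the bright ones was 0.06, against -0.03 over all 5814 bright genes of the liver. All 6 genes called higher were bright (8.82% of 68, against 3.15% of all bright genes), and 0 bright ones were called lower, against 6.14% of all bright genes.

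**Figure D1:**
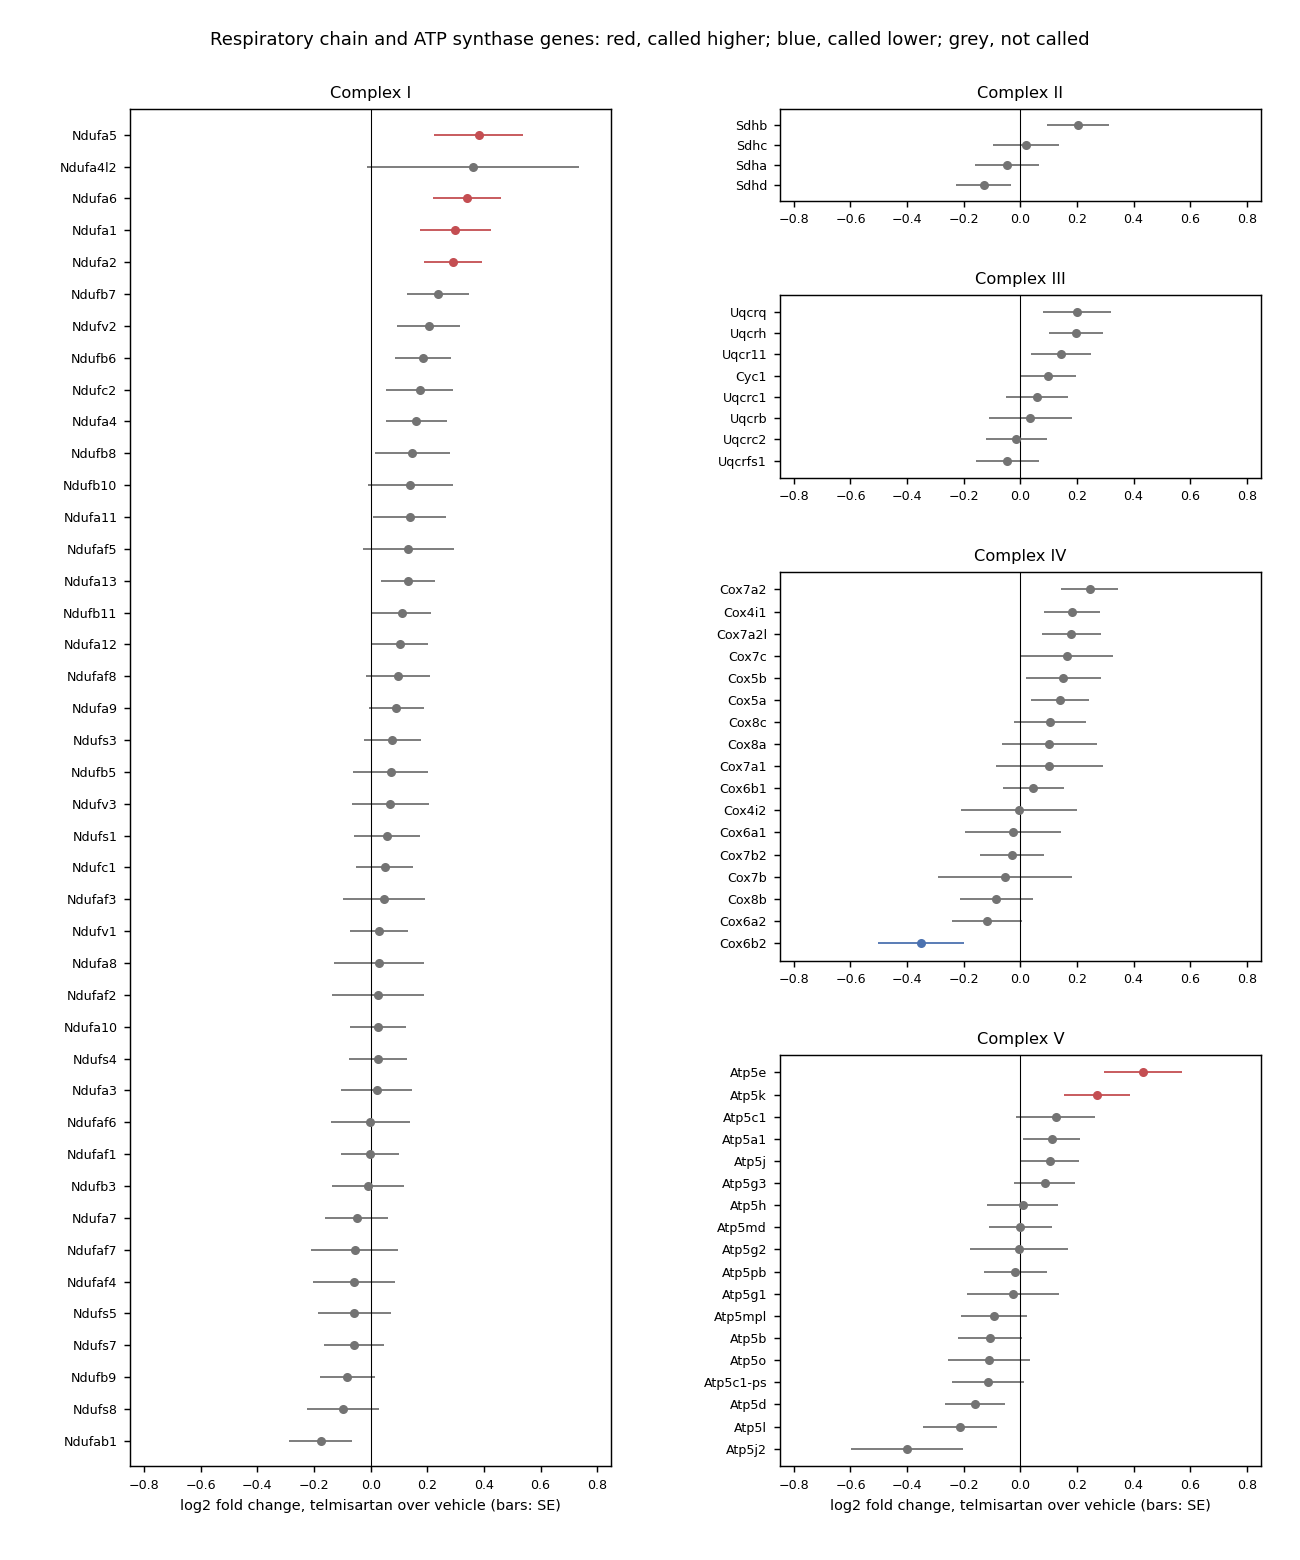
Log2 fold change, telmisartan over vehicle, of the 89 respiratory chain and ATP synthase genes by complex, with bars of 1 SE from limma (3 arrays in each group). Red points are the 6 genes called higher, the blue point is Cox6b2, called lower, and most points lie within 0.2 of 0.

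Complex I accessory subunits surround the catalytic core and are needed for its assembly and stability. Of the 26 genes for them, 4 were called higher (15.4%, against 3.08% of all genes) and none lower (against 3.50%), with a median log2 fold change of 0.10. Ndufa6, whose product binds the mitochondrial acyl carrier protein in the matrix arm, was at 7.88, 7.86 and 8.02 on the telmisartan arrays and at 7.39, 7.68 and 7.68 on the vehicle arrays. Every telmisartan array was above every vehicle array, and vehicle 1 was the lowest. The log2 fold change was 0.34 (SE 0.12, unadjusted limma p of 0.0210, adjusted p of 0.696). The call was lost without telmisartan 3 or without vehicle 1 (p up to 0.0699).

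Ndufa2, a small subunit of the NADH-oxidizing end of the matrix arm, was at 6.80, 6.97 and 6.88 with telmisartan and at 6.62, 6.53 and 6.63 with vehicle. The groups were apart, with narrow spreads (SD of 0.08 and 0.06, n = 3 each). Its log2 fold change was 0.29 (SE 0.10, unadjusted limma p of 0.0199), and the call was lost without telmisartan 2 or without vehicle 2 (p up to 0.0653). Ndufa1, a membrane-arm subunit needed for the assembly of complex I, was at 7.20, 7.43 and 7.16 with telmisartan and at 6.81, 6.99 and 7.10 with vehicle. Telmisartan 3 and vehicle 3 almost met. Its log2 fold change of 0.30 (SE 0.13, unadjusted limma p of 0.0436) was called in 2 of the 6 fits that left out 1 array and neither by the methods' t-test nor with median-centred arrays. It was lost without telmisartan 1, telmisartan 2, vehicle 1 or vehicle 2.

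Ndufa5, an accessory subunit of the matrix arm, was at 5.49, 5.75 and 5.70 with telmisartan and at 5.03, 5.57 and 5.20 with vehicle. Here the groups overlapped, as vehicle 2 was above telmisartan 1. The log2 fold change was 0.38 (SE 0.16, unadjusted limma p of 0.0390), and the call was lost with the methods' t-test and without telmisartan 2, telmisartan 3, vehicle 1 or vehicle 3.

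Further accessory subunits lay apart between the groups without being called. Ndufb7, of the side of the membrane arm that faces the intermembrane space, was at 5.71, 5.74 and 5.79 with telmisartan and at 5.42, 5.45 and 5.66 with vehicle (log2 fold change 0.24, SE 0.11, unadjusted limma p of 0.0572). Ndufb6, Ndufa9, Ndufa12 and Ndufa13 were also higher on every telmisartan array than on any vehicle array, by 0.09 to 0.18 on the log2 scale. The opposite held for Ndufab1, the mitochondrial acyl carrier protein, which was at 5.16, 4.87 and 5.10 with telmisartan and at 5.21, 5.25 and 5.20 with vehicle (log2 fold change -0.18, SE 0.11). It also held for Ndufb9, a partner of the acyl carrier protein in the membrane arm, at 9.86, 9.77 and 9.87 with telmisartan and at 9.95, 9.92 and 9.88 with vehicle (log2 fold change -0.08, SE 0.10).

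The core of complex I holds the flavin, the iron-sulfur clusters and the quinone site. None of the 6 nuclear core genes measured here was called, and their median log2 fold change was 0.04. Ndufv2, an iron-sulfur protein of the NADH-oxidizing end, was at 7.47, 7.33 and 7.58 with telmisartan and at 7.32, 7.26 and 7.17 with vehicle, the groups being apart (log2 fold change 0.20, SE 0.11). Ndufs8, which carries iron-sulfur clusters near the quinone site, had a log2 fold change of -0.10 (SE 0.13). None of the 8 Ndufaf assembly factors was called or lay apart between the groups, and their median was 0.01. Ndufa4 was at 9.52, 9.59 and 9.74 with telmisartan and at 9.48, 9.52 and 9.36 with vehicle, with telmisartan 1 and vehicle 2 touching (log2 fold change 0.16, SE 0.11). Its paralog Ndufa4l2, which is induced by hypoxia, was dim and scattered, at 3.31, 4.69 and 3.55 with telmisartan and at 2.95, 3.50 and 4.01 with vehicle (log2 fold change 0.36, SE 0.37).

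**Figure D2:**
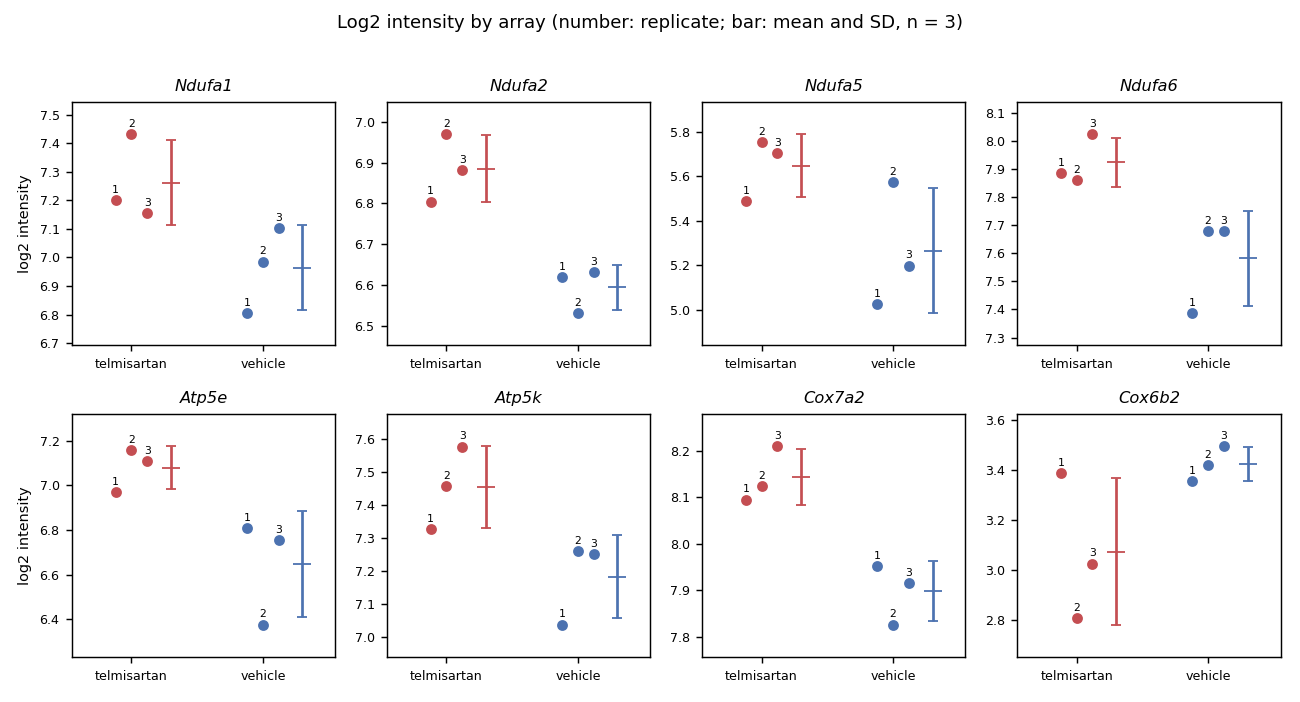
Log2 intensity on each array of the 7 genes called at the thresholds and of Cox7a2, telmisartan left of vehicle, with replicate numbers over the points and bars for the mean and SD (n = 3 each). The groups are apart in every panel other than Ndufa5, where vehicle 2 is above telmisartan 1, and Cox6b2, where telmisartan 1 is among the vehicle arrays.

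Complex V has a rotor in the membrane, a stalk that turns inside the catalytic head (F1) and a fixed peripheral stalk. Atp5e, the epsilon subunit of the turning stalk, was at 6.97, 7.16 and 7.11 on the telmisartan arrays and at 6.81, 6.38 and 6.75 on the vehicle arrays. Vehicle 2 was the lowest, and all telmisartan arrays were above all vehicle arrays. The log2 fold change was 0.43 (SE 0.14, unadjusted limma p of 0.0133, adjusted p of 0.695). Atp5e was called in each of the 6 fits that left out 1 array (limma p up to 0.0451) and by the methods' t-test, and no other of the 89 genes was called in all 6. Atp5k, subunit e of the membrane part, which takes part in pairing of the enzyme into dimers, was at 7.33, 7.46 and 7.58 with telmisartan and at 7.04, 7.26 and 7.25 with vehicle. The groups were apart, with a log2 fold change of 0.27 (SE 0.12, unadjusted limma p of 0.0486). Its call was kept only without telmisartan 1 among the fits that left out an array, and it was not made by the methods' t-test or with median-centred arrays.

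No other gene of complex V was called. Atp5b, the catalytic beta subunit, was at 10.65, 10.36 and 10.57 with telmisartan and at 10.67, 10.64 and 10.59 with vehicle, overlapping (log2 fold change -0.11, SE 0.11). Atp5a1, the alpha subunit, was at 10.28, 10.21 and 10.41 with telmisartan and at 10.19, 10.18 and 10.20 with vehicle, so that the groups were just apart (log2 fold change 0.11, SE 0.10). Atp5l, subunit g, which sits beside subunit e in the membrane, was at 7.79, 7.61 and 7.66 with telmisartan and at 8.13, 7.79 and 7.77 with vehicle. Telmisartan 1 lay between vehicle 3 and vehicle 2, and the log2 fold change was -0.21 (SE 0.13). Among the 5 membrane subunits, 1 was above 0 and the median was -0.09. Atp5j2, subunit f, had the most negative log2 fold change of the 89 genes, -0.40 (SE 0.20, unadjusted limma p of 0.0758), on a dim probe set. Atp5g1, Atp5g2 and Atp5g3, which encode the same c subunit of the rotor ring, had log2 fold changes of -0.02, 0.00 and 0.09 (SE of 0.16, 0.17 and 0.11). The 4 peripheral stalk genes ranged from -0.11 to 0.10.

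Promoter sequences were taken from RefSeq (GRCm38.p6) and searched on both strands, from 250 bases before to 50 bases after the start site, for letters bound by factors that are known to drive genes of this family: GCGCATGCG for NRF1, CCGGAAG for GABP and other ETS factors and AAGATGGCG for YY1. Promoters matched for 72 of the 89 genes, and 41.7% of these held at least 1 of the motifs, where 16.4% of the 16895 measured genes with a promoter did. The NRF1 letters were in 13.9% of the 72 promoters and in 2.66% of those of measured genes, the ETS letters in 26.4% and 12.7%, and the YY1 letters in 9.72% and 2.18%. The median log2 fold change of the 72 genes was 0.04 with the NRF1 letters and 0.06 without them, 0.10 with and 0.05 without the ETS letters, and 0.05 with and 0.06 without the YY1 letters. The 250 bases before the start are shown for both complex V genes called higher, which hold motifs. They are also shown for Ndufa6, which was called higher and holds none. The promoters of Ndufa1 and Ndufa5, also called higher, hold none of the motifs either and are not shown. All those shown lie on the minus strand, and capitals mark the motif letters. Atp5e (chr2:174464102-174464351) holds the ETS letters read on the other strand, beginning at -102 from the start. In Atp5k (chr5:108434400-108434649) the NRF1 letters lie on both strands, overlapping, at -50 and -49, and ETS letters at 13 fall past the bases shown. Ndufa6 is at chr15:82354292-82354541. A match is a description of the letters only.
Atp5e: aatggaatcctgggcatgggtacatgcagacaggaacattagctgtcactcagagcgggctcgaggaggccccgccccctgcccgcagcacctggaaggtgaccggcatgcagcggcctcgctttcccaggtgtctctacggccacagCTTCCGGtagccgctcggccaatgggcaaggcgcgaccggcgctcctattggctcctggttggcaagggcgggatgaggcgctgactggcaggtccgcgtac
Atp5k: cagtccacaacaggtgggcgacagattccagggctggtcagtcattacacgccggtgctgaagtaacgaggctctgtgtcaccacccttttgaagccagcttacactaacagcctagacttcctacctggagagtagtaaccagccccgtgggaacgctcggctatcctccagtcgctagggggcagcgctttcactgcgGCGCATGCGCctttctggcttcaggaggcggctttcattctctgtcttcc
Ndufa6: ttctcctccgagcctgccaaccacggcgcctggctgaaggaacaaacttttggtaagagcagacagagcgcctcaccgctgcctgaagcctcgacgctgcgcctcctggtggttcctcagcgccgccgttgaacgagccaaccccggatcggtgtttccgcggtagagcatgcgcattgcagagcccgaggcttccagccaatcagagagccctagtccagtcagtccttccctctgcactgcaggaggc

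Complex IV is built on mitochondrially encoded subunits, with nuclear subunits that in part exist as tissue isoforms. The 9 genes for ubiquitous or liver forms had a median log2 fold change of 0.14 and none was called, while the 7 isoforms known from other tissues were all dim, with a median of -0.03. Cox7a2, the liver form of subunit 7a, was at 8.09, 8.12 and 8.21 with telmisartan and at 7.95, 7.83 and 7.92 with vehicle. The groups were clearly apart, and the unadjusted limma p was 0.0387, but the log2 fold change of 0.24 (SE 0.10) was 1.18-fold, under the fold threshold. It was the only gene of the 89 to miss a call through the fold alone, which left 7 of 89 higher at that p, against 3.29% of all genes. Cox4i1, the common form of subunit 4, was at 8.16, 8.25 and 8.17 with telmisartan and at 8.06, 8.05 and 7.93 with vehicle, also apart (log2 fold change 0.18, SE 0.10). Cox5a, its early partner in assembly, was at 8.05, 8.02 and 8.03 with telmisartan and at 7.99, 7.79 and 7.90 with vehicle, likewise apart (log2 fold change 0.14, SE 0.10). Cox7a2l, a relative of Cox7a2 that takes part in the joining of complexes III and IV into supercomplexes, was at 5.79, 5.92 and 5.77 with telmisartan and at 5.56, 5.73 and 5.64 with vehicle. Its groups were apart too (log2 fold change 0.18, SE 0.10), and Cox6b1, the common form of subunit 6b, had a log2 fold change of 0.05 (SE 0.11).

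Cox6b2, a form of subunit 6b known from testis, was the only gene called lower. It was at 3.39, 2.81 and 3.03 with telmisartan and at 3.36, 3.42 and 3.50 with vehicle, all of them dim values. Telmisartan 1 lay among the vehicle arrays. Its log2 fold change of -0.35 (SE 0.15, unadjusted limma p of 0.0488) was called in 1 of the 6 fits that left out 1 array (without telmisartan 1) and not by the methods' t-test. The muscle and other isoforms were near 0: Cox4i2 at -0.01, Cox6a2 at -0.12, Cox7b2 at -0.03, Cox8b at -0.09 and Cox8c at 0.10 in log2 fold change, with SE of 0.11 to 0.21. The 8 muscle markers were dim as well, and none was called. Single-symbol probe sets for Cox7b and Cox7c, both of them common subunits, were dim and were not called (log2 fold changes of -0.05 and 0.16).

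Complex III showed no called gene, with a median log2 fold change of 0.08. Its 4 small accessory genes were all above 0, with a median of 0.17. Uqcrh, the hinge protein that helps cytochrome c1 dock its partner, was at 6.36, 6.37 and 6.40 with telmisartan and at 6.16, 6.20 and 6.18 with vehicle. These were 2 tight and separate groups (SD of 0.02 each, n = 3), with a log2 fold change of 0.20 (SE 0.09, unadjusted limma p of 0.0687). Uqcrq, a small subunit near the quinone site, was at 5.88, 6.15 and 6.21 with telmisartan and at 5.87, 5.80 and 5.97 with vehicle, and telmisartan 1 was among the vehicle arrays (log2 fold change 0.20, SE 0.12). Cyc1, the cytochrome c1 that hands electrons to cytochrome c, was at 6.86, 6.80 and 6.95 with telmisartan and at 6.78, 6.77 and 6.77 with vehicle, just apart (log2 fold change 0.10, SE 0.10). Uqcrfs1, the Rieske iron-sulfur protein, overlapped between the groups (log2 fold change -0.05, SE 0.11). Uqcrb was at 10.15, 10.07 and 10.31 with telmisartan and at 10.41, 10.12 and 9.90 with vehicle, a log2 fold change of 0.04 (SE 0.15).

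Complex II, which is also an enzyme of the tricarboxylic acid cycle, had no called gene and a median log2 fold change of -0.01. Sdha, the flavoprotein that oxidizes succinate, was at 9.51, 9.39 and 9.48 with telmisartan and at 9.66, 9.48 and 9.38 with vehicle, overlapping (log2 fold change -0.05, SE 0.11). Sdhb, the iron-sulfur subunit, was at 7.71, 7.51 and 7.64 with telmisartan and at 7.53, 7.40 and 7.32 with vehicle. Vehicle 1 lay just above telmisartan 2 (log2 fold change 0.21, SE 0.11, unadjusted limma p of 0.0968). Of the membrane anchors, Sdhc overlapped, at 7.64, 7.65 and 7.85 with telmisartan and at 7.55, 7.73 and 7.80 with vehicle (log2 fold change 0.02, SE 0.12). Sdhd was at 7.86, 7.73 and 7.80 with telmisartan and at 7.90, 7.93 and 7.94 with vehicle. All telmisartan arrays were below all vehicle arrays, by a mean of -0.13 on the log2 scale (SE 0.10).

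Over the 89 genes, every telmisartan array was above every vehicle array for 18 genes (20.2%) and below for 3 (3.37%), where 6.08% of all genes were above and 6.35% below. All 21 of these were bright, so that they made up 26.5% above and 4.41% below of the 68 bright genes, where 6.74% of all bright genes were above and 11.0% below. The 18 were 9 genes of complex I, 2 of complex III, 4 of complex IV and 3 of complex V, and the 3 were Ndufab1, Ndufb9 and Sdhd. The log2 fold changes of the 18 ran from 0.09 to 0.43. Genes of the same complex share arrays, so these counts rest on the same 6 mice.

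Averaged over all genes of a complex and set against the mean of the 6 arrays, complex I was at 0.04, 0.00 and 0.08 on the telmisartan arrays and at -0.05, -0.05 and -0.02 on the vehicle arrays. The groups did not overlap for complex I. For complex III the values were 0.01, -0.01 and 0.12 with telmisartan and -0.02, -0.04 and -0.06 with vehicle, also without overlap, and telmisartan 3 stood well above the rest. Complex IV overlapped, at -0.05, 0.06 and 0.05 with telmisartan and at -0.11, 0.01 and 0.03 with vehicle, with vehicle 1 the lowest. Complex V overlapped as well, at -0.04, -0.06 and 0.09 with telmisartan and at 0.02, -0.02 and 0.01 with vehicle. Single mice weighed on these averages: telmisartan 3 was the highest array for 31 of the 89 genes (34.8%, against 17.7% of all genes), and vehicle 1 was the lowest for 25 (28.1%, against 20.8%).

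**Figure D3:**
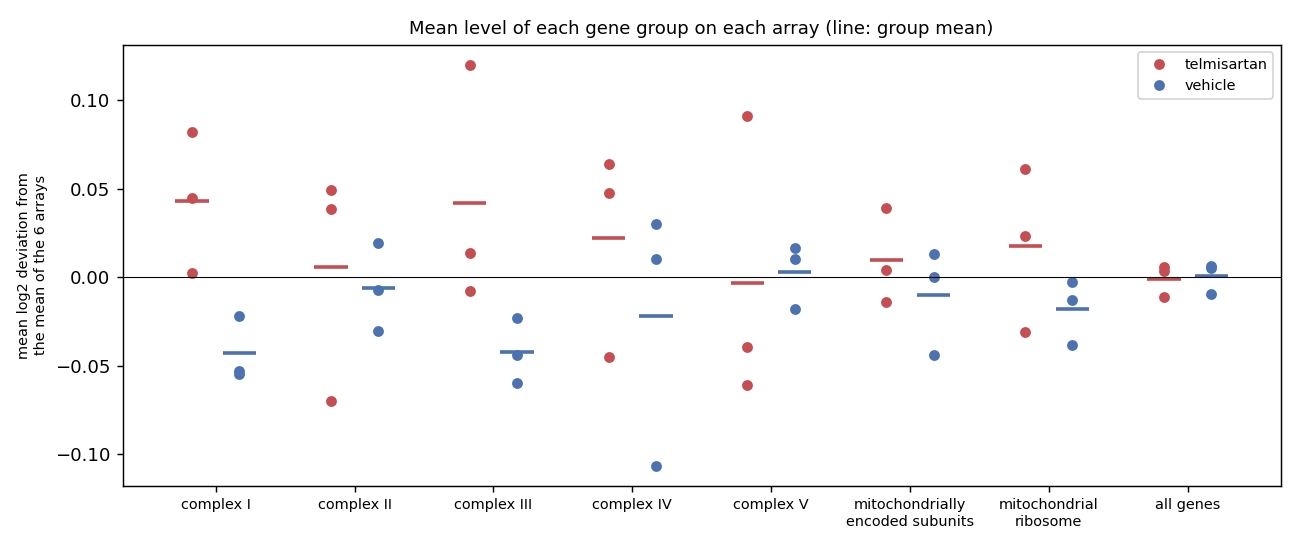
Mean deviation from the mean of the 6 arrays, in log2 intensity, of the genes of each complex and of other gene groups, with 1 point for each array, telmisartan left of vehicle, and lines for the group means. Complexes I and III are without overlap between the groups, while complexes II, IV and V, the mitochondrially encoded subunits, the mitochondrial ribosome and all genes overlap.

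Some genes differed more among the mice of a group than between treatments. Of the 89 genes, 9 spanned at least 0.5 on the log2 scale among the telmisartan arrays (10.1%, against 16.4% of all genes) and 9 among the vehicle arrays (10.1%, against 16.9%), and the median range was 0.208 in each group. Among the genes wide with telmisartan, only Ndufaf7 was bright, while 6 of those wide with vehicle were bright. Vehicle 1 was the lowest and vehicle 3 the highest vehicle array for 6 of the 9 genes wide with vehicle. In 5 of the 6, all telmisartan arrays lay between vehicle 1 and vehicle 3, and these 5 are given here. They were chosen for their vehicle range and for this order after the values were seen, so the order they share was set by the choice. Cox6a1, the liver form of subunit 6a, was at 10.67, 10.63 and 10.71 with telmisartan and at 10.32, 10.75 and 11.02 with vehicle (log2 fold change -0.03, SE 0.17). Cox8a, the common form of subunit 8, was at 8.22, 8.39 and 8.34 with telmisartan and at 7.84, 8.33 and 8.49 with vehicle (log2 fold change 0.10, SE 0.17). The order of the vehicle mice in both genes is the one they were chosen for.

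Atp5g2 was at 8.23, 8.30 and 8.29 with telmisartan and at 7.91, 8.30 and 8.63 with vehicle on its brighter probe set, and at 7.75, 7.79 and 7.88 with telmisartan and at 7.48, 7.86 and 8.21 with vehicle on its other one. The order of the vehicle mice was the same on both. Ndufa8, an accessory subunit with cysteine pairs that faces the intermembrane space, was at 7.89, 7.88 and 7.89 with telmisartan and at 7.51, 7.92 and 8.15 with vehicle. Cox7a1, the heart and muscle form of subunit 7a, was dim, at 3.74, 3.43 and 3.67 with telmisartan and at 3.09, 3.63 and 3.82 with vehicle. Ppargc1a, a coactivator that drives mitochondrial gene expression, also had vehicle 1 lowest and vehicle 3 highest in the vehicle group, at 6.03, 6.16 and 6.57 with telmisartan and at 5.28, 6.31 and 6.42 with vehicle, while telmisartan 3 was above them all (log2 fold change 0.25, SE 0.29). This order was not limited to such genes. It held for the ribosomal protein genes Rpl28 (9.10, 9.64 and 10.13 on vehicle 1 to 3) and Rpl29 (8.45, 8.74 and 9.21). It also held for the macrophage marker Cd68 (5.49, 6.12 and 6.88). Rpl27, also wide with vehicle, had another order (6.82, 7.44 and 7.24). How common the order was over all genes was not tested.

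**Figure D4:**
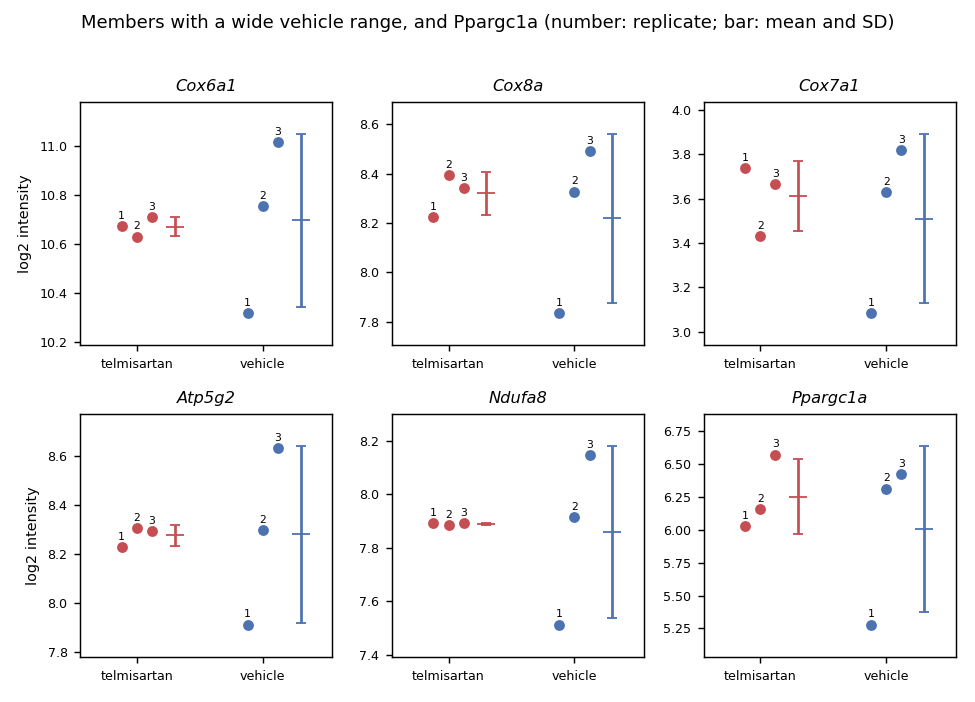
Log2 intensity on each array of 5 respiratory chain genes with a vehicle range over 0.5 and of Ppargc1a, telmisartan left of vehicle, with replicate numbers over the points and bars for the mean and SD (n = 3 each). Vehicle 1 is the lowest and vehicle 3 the highest vehicle array in each panel, and the telmisartan arrays lie between them in all panels other than Ppargc1a. The 5 respiratory chain genes were chosen for this order.

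The mitochondrially encoded subunits, the counterparts of these genes in mitochondrial DNA, gave no call. Of 13 such genes, 10 were measured, and their log2 fold changes lay between -0.04 and 0.09 (median 0.01, SE of 0.09 to 0.13). Group means lay between 12.14 and 12.82 for all of them other than ND6, close to the highest value of any probe set on these arrays, 12.94. CYTB, the cytochrome b of complex III, was at 12.67, 12.70 and 12.72 with telmisartan and at 12.61, 12.66 and 12.66 with vehicle, the 1 gene of the 10 whose groups were apart (log2 fold change 0.05, SE 0.09). ND6, a membrane subunit of complex I, was at 10.25, 10.36 and 10.38 with telmisartan and at 9.98, 10.29 and 10.43 with vehicle, again with vehicle 1 lowest.

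Electron carriers and other entry points to the chain held 4 called genes. Of 19 genes measured, 3 were called higher (15.8%, against 3.08% of all genes) and 1 lower (5.26%, against 3.50%). Coq7, a hydroxylase of ubiquinone synthesis, was at 5.21, 5.52 and 5.38 with telmisartan and at 4.92, 4.98 and 4.92 with vehicle. The groups were well apart, and the log2 fold change of 0.43 (SE 0.11, unadjusted limma p of 0.00463, adjusted p of 0.695) was called in all 6 fits that left out 1 array. Coq5, a methyltransferase of the same route, was called lower, at 7.44, 6.87 and 7.04 with telmisartan and at 7.72, 7.41 and 7.46 with vehicle (log2 fold change -0.42, SE 0.16), with telmisartan 1 among the vehicle arrays. Etfa, which carries electrons from fatty acid oxidation toward ubiquinone, was at 9.08, 9.24 and 9.31 with telmisartan and at 8.98, 8.97 and 8.82 with vehicle, apart (log2 fold change 0.28, SE 0.11). Prodh, the proline dehydrogenase of the inner membrane, was at 7.07, 6.79 and 7.14 with telmisartan and at 6.47, 6.68 and 6.75 with vehicle, apart as well (log2 fold change 0.37, SE 0.13). The call of Coq5 was lost without telmisartan 2, telmisartan 3, vehicle 1 or vehicle 3, that of Etfa without telmisartan 2, telmisartan 3, vehicle 2 or vehicle 3, and that of Prodh without telmisartan 1, telmisartan 3 or vehicle 1. Etfdh, which accepts the electrons of Etfa, was at 9.49, 9.48 and 9.52 with telmisartan and at 9.63, 9.69 and 9.58 with vehicle, lower on every telmisartan array but not called (log2 fold change -0.14, SE 0.10). Cycs, the mobile cytochrome c, overlapped, at 9.56, 9.25 and 9.54 with telmisartan and at 9.49, 9.51 and 9.28 with vehicle (log2 fold change 0.02, SE 0.13).

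Among 22 regulators of mitochondrial gene expression, 1 was called higher and 1 lower (4.55% each, against 3.08% and 3.50% of all genes). Ppargc1b, a relative of Ppargc1a, was called higher at a dim level, at 3.75, 3.51 and 4.23 with telmisartan and at 3.32, 3.51 and 3.40 with vehicle (log2 fold change 0.42, SE 0.18, unadjusted limma p of 0.0460), and its call was made without telmisartan 2 and lost without any other array. Nrip1, a corepressor that restrains oxidative genes, was called lower, at 5.57, 5.38 and 5.44 with telmisartan and at 5.60, 5.94 and 5.91 with vehicle. Every telmisartan array was below every vehicle array (log2 fold change -0.35, SE 0.13, unadjusted limma p of 0.0217), and the call was lost without telmisartan 2, telmisartan 3, vehicle 2 or vehicle 3. Of the regulators whose motifs were searched, Nrf1 and Gabpa were near 0, and Yy1 is not described here. Nrf1 had a log2 fold change of 0.05 (SE 0.12) and Gabpa one of 0.05 (SE 0.10). Tfam, which packs and transcribes mitochondrial DNA, had 0.16 (SE 0.14), and Esrra, a nuclear receptor partner of Ppargc1a, had 0.08 (SE 0.17).

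The other mitochondrial lists were called at shares near or below those over all genes, 3.08% higher and 3.50% lower. Of 40 assembly factors outside the name rule, Tmem126b, which helps build the membrane arm of complex I, was called higher, at 4.84, 5.05 and 5.00 with telmisartan and at 4.71, 4.50 and 4.69 with vehicle (log2 fold change 0.33, SE 0.11), which was 2.5% of them, and none was called lower. Its call was lost without telmisartan 2, telmisartan 3 or vehicle 2. Of 71 mitochondrial ribosome genes, Mrpl20 (0.34, SE 0.12) and the dim Mrps36 (0.31, SE 0.13) were called higher in log2 fold change, 2.82% of them, and none was called lower. Both of these calls were lost without telmisartan 1 or telmisartan 2, that of Mrpl20 also without vehicle 3 and that of Mrps36 also without vehicle 1 or vehicle 2. None of 13 tricarboxylic acid cycle genes (median -0.03) and none of 14 genes of inner membrane organisation and uncoupling (median -0.05) was called. Median log2 fold changes were above 0 for the assembly factors (0.05, 65.0% above 0) and the mitochondrial ribosome (0.03, 66.2%). The electron carriers and other entry points had 0.10 and 63.2%. The lean above 0 of the 89 genes (0.05, 62.9%) was thus not particular to them. Names that begin with Rpl or Rps and a digit matched 70 genes, and 8 of these that encode no ribosomal protein, mostly S6 kinases, were set aside after the values were seen. Of the 62 cytosolic ribosome genes left, 3 were called higher (4.84%), the dim Rpl30 (0.68, SE 0.21), the dim Rps20 (0.58, SE 0.12) and Rps3a1 (0.27, SE 0.12), and 2 lower (3.23%), Rpl3 (-0.42, SE 0.12) and Rpl9 (-0.36, SE 0.14), with a median of 0.04. The calls of Rpl30, Rps20 and Rpl3 were made in all 6 fits that left out 1 array, while that of Rps3a1 was made only without telmisartan 1 and that of Rpl9 only without vehicle 2 or vehicle 3. That of Rpl30, at means of 2.22 with telmisartan and 1.54 with vehicle, was lost with the methods' t-test and with log2(intensity + 16).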

How the data were processed

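Liver RNA of 6 STAM mice (3 with telmisartan, 3 with vehicle) was hybridised to Mouse Gene 2.0 ST arrays, 1 for each mouse, and the authors normalized all 6 by RMA (robust multi-array average). They deposited linear intensities for 31873 probe sets. RMA settings, software version and genome build: not given in the sources used here. A table of platform annotation gave 23094 probe sets a single gene symbol, 1770 several and 7009 none. Intensities were turned to log2 with no pseudocount and no filter on low values. Telmisartan was set against vehicle by lmFit and eBayes of limma 3.58.1 under R 4.3.3 (2-sided, with Benjamini-Hochberg adjustment over the 23094 probe sets), and the methods' t-test was run as an alternative. Counts and medians were made in Python 3.11.15 with pandas 2.3.3. The fit was tested on simulated data. The number of arrays, 3 in each group, limits the precision.

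The members and the lists of other genes were chosen with earlier results of these data known. Lists are described by counts and medians, with no test over the list. The named genes are those called, the largest positive and negative changes and the brightest gene of each complex (with a log2 intensity of 5 or more in the mean of a group), all Sdh genes and Cyc1, the isoform families of complexes IV and V, and the called genes of the other lists. Genes named beside these were chosen after their values were seen. Probe sets with several symbols were left out of the counts, and 10 of them that carry a subunit symbol were fitted in an added alternative, chosen after seeing the data, as was the removal of 8 genes from the cytosolic ribosome list. Promoters came from a RefSeq table of GRCm38.p6, used for sequence only. The alternatives were other array scalings, probe set choices, filters, fold thresholds and tests, a replicate block and leaving out each array.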

Additional observations from a re-analysis of the deposited data

How the results depend on the processing

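The number of respiratory chain and ATP synthase genes called higher, 6 with all arrays, was 3 with the methods' t-test, 0 at a 1.5-fold threshold and between 3 and 6 with arrays left out in turn, 3 of them without telmisartan 2, telmisartan 3, vehicle 1 or vehicle 2. It was 4 with median-centred arrays, 4 with log2(intensity + 16) and 7 with cyclic loess. Over all genes, the methods' t-test called 1.47% higher, median-centring 2.55%, log2(intensity + 16) 0.616% and cyclic loess 2.97%. With log2(intensity + 16), fewer genes were thus called higher both among the 89 and over all genes. Without telmisartan 2, telmisartan 3, vehicle 1 or vehicle 2, 2.61% to 3.36% of all genes were called higher, so that 3 of 89 was near that share. The number called lower, 1 with all arrays, was between 0 and 1 with arrays left out. It was 0 with the methods' t-test, with the intensity trend in limma, with log2(intensity + 16) and at a 1.5-fold threshold. Among probe sets with a group mean of at least 5 it was also 0. Over all genes, the methods' t-test called 1.75% lower, the intensity trend 3.56% and log2(intensity + 16) 1.29%. The share was 6.35% among genes with a group mean of at least 5 and 2.63% to 4.41% with arrays left out. The median log2 fold change of complex IV, 0.10, was 0.0365 with log2(intensity + 16) and 0.00275 to 0.134 with arrays left out. That of complex I was 0.0563 to 0.111 and that over all 89 genes 0.0206 to 0.0720 with arrays left out. The cause of these shifts was not tested. The medians of complexes II and V, both -0.01 with all arrays, turned positive: that of complex II was 0.00279 with cyclic loess and -0.0521 to 0.0193 with arrays left out (above 0 without telmisartan 2), and that of complex V 0.00724 with cyclic loess and -0.0619 to 0.0120 with arrays left out (above 0 without telmisartan 1 or vehicle 1). No called gene changed direction under the alternatives run. Atp5e was called in every one of them other than at the 1.5-fold threshold. Genes not called with all arrays were called under single alternatives: Cox7a2 with cyclic loess, with no fold threshold and without vehicle 1, Uqcrq without telmisartan 1, Ndufv2 without telmisartan 2 and Ndufb7 without vehicle 3 (all higher), and Cox4i2 without telmisartan 2 and Atp5j2 without telmisartan 3 or vehicle 2 (both lower). With the replicate number as a block, 4 genes were called higher and 1, Atp5j2, lower, where 3.29% and 3.45% of all genes were. Same-numbered mice did not deviate together (correlations of 0.04, -0.02 and 0.03), and mice with different numbers had correlations of -0.07 to 0.06. These values gave no sign of pairing. With 3 mice in each group they cannot exclude a shared litter, cage or batch, which is not given in the sources used here.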

Other observations

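Subunit symbols are carried by 10 further probe sets that share their annotation with another gene or a pseudogene, and their signal cannot be given to a single gene. Of these, 7 carry 5 subunits that are not among the 89 genes (Cox6c, Ndufb2, Ndufb4, Ndufs6 and Uqcr10), and 3 carry Ndufs1, Ndufs5 or Uqcrb, which are. None of the 10 was called when all deposited probe sets were fitted together, and their log2 fold changes lay between -0.09 and 0.24. The probe set for Ndufb2, a membrane-arm subunit of complex I, and Adck2 had the largest of these changes, at 5.10, 5.29 and 5.26 with telmisartan and at 5.09, 5.00 and 4.86 with vehicle. These groups were barely apart (log2 fold change 0.24, SE 0.11, unadjusted limma p of 0.0708). The brighter probe set for Cox6c, a complex IV subunit, and Gm6265 overlapped, at 9.10, 9.10 and 9.18 with telmisartan and at 9.02, 9.12 and 8.99 with vehicle. That for Ndufs5 and its pseudogene was level at 6.49 in each group.

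The promoters of Atp5g2, Atp5k, Atp5l, Cox6a1, Ndufa8, Ndufa11, Ndufaf4, Ndufaf5, Uqcr11 and Uqcrc1 held the NRF1 letters GCGCATGCG. Vehicle 1 was the lowest array for 6 of these 10 genes and for 98 of the 449 measured genes with these letters (21.8%). This was noticed after the values were seen, and no test was made of it.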
